A study of Homo sapiens with 3 samples.

Results

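Counts under the names of 10 glycolytic enzyme genes were examined in RNA sequencing of the established human cell line HEK293, which came from embryonic kidney cells and carries adenovirus DNA. The genes were taken by name: the isoform pairs HK1 and HK2, PFKL and PFKM, ENO1 and ENO2, and LDHA and LDHB, together with ALDOA and PKM. All 10 names were present among the 26485 gene names of the tables. The series holds 1 condition in triplicate (n = 3), HEK293 cells grown in DMEM with fetal calf serum, so no contrast between groups existed. Per the labels' protocols, ribosomal RNA was removed from total RNA and the libraries preserve strand. Nothing in the labels tells whether replicates were separate cultures, so p-values measure the spread between these samples, which may be technical.

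Glycolysis converts glucose to pyruvate in the cytosol. Hexokinase traps glucose in the cell as glucose 6-phosphate, phosphofructokinase commits it to the pathway, aldolase splits the hexose, enolase makes phosphoenolpyruvate and pyruvate kinase releases ATP and pyruvate. Lactate dehydrogenase then interconverts pyruvate and lactate. Most steps are served by isoforms from separate genes that differ by tissue: HK1 is widespread and HK2 is typical of insulin-responsive and proliferating cells, PFKL and PFKM are named for liver and muscle, ENO2 for neurons, and LDHA and LDHB encode the muscle and heart subunits of the lactate dehydrogenase tetramer. Several of these genes, LDHA and HK2 among them, are textbook targets of the hypoxia factor HIF-1 and of factors of the MYC family. HIF-1 binding sites often carry the core ACGTG, the only form of the core searched below. MYC family factors bind the E-box CACGTG.

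The stretches of 250 bases before the annotated starts of HK2, LDHA and LDHB are shown because the hexokinase and lactate dehydrogenase pairs carry most of the results below. They were taken from RefSeq on GRCh38.p14, run 5′ to 3′ toward the start on the strand of the gene, and have ACGTG or its reverse complement CACGT in capitals, so that CACGTG marks an E-box. The HK2 stretches are chr2:74833877-74834126 and, before a second start inside the gene, chr2:74834920-74835169, both on the plus strand. The LDHA stretches are chr11:18394313-18394562 and, before a second start, chr11:18396101-18396350, both on the plus strand, and the LDHB stretch is chr12:21657843-21658092 on the minus strand.
HK2, first start: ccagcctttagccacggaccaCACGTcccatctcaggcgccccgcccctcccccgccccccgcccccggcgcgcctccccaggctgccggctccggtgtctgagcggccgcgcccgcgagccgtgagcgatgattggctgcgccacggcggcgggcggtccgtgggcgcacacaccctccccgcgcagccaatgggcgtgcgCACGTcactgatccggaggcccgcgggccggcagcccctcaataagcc
HK2, second start: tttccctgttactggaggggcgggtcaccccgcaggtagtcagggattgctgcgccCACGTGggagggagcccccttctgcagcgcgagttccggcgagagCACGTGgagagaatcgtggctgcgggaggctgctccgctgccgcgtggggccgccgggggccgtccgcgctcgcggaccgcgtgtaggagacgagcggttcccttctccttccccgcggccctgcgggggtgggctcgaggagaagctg
LDHA, first start: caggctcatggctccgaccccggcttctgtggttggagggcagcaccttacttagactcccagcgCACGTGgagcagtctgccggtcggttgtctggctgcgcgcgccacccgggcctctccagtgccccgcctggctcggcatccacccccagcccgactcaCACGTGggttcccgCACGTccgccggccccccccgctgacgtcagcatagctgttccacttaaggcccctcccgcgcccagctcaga
LDHA, second start: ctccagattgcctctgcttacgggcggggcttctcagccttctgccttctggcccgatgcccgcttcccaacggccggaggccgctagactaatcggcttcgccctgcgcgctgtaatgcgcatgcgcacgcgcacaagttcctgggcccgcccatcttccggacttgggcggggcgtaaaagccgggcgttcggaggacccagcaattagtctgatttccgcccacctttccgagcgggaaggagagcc
LDHB: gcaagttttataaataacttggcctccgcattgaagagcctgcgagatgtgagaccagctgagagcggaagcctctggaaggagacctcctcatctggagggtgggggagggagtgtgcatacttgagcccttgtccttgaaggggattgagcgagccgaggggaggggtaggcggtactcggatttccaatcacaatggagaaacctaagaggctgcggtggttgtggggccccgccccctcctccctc
The first HK2 stretch held 2 matches to ACGTG counted over both strands and no CACGTG, and the second held 2 E-boxes, each of which counts as a match on both strands. The first LDHA stretch held 2 E-boxes and a further match to the core, and the second LDHA stretch and the LDHB stretch held neither motif. The stretches before the 7 annotated starts of HK1, not shown, also held neither. Across the members, 8 of 26 annotated starts, in 5 of the 10 genes, had ACGTG on either strand, and 3 starts, in 3 genes, had CACGTG. Of 35116 human starts in the same table, 18.5% had ACGTG and 6.34% had CACGTG in their 250 bases. Starts of 1 gene can lie a few bases apart and share sequence, as several of the 7 of PFKM do. A match describes letters in the window and no binding was measured.

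The libraries were shallow in counts assigned to genes: 289241 to 483114 per library, or 1.76% to 2.48% of all records, with 90.6% to 91.5% of records in no annotated feature. CPM below means counts per 1000000 of the TMM effective library size, and 1 count equalled 2.29, 2.31 and 3.30 CPM in replicates 1, 2 and 3. A name with no count could therefore lie anywhere below the value of 3 counts, 6.86, 6.92 and 9.89 CPM in the same order. This floor and the intervals below cover counting error only. TSIX alone took 17.1% to 28.5% of the gene-assigned counts, the most in replicate 2. The line's markers were partly present: 4 of 8 names of a HEK293 list had a count in every library, led by LIN28A, an RNA-binding protein, at 95.9 ± 28.8 CPM and NEFL, a neurofilament, at 45.6 ± 23.7 CPM (SD, n = 3 each). PAX8, NEFM and CDH2 had 1 or 2 counts in all, below the floor, and PAX2 had none. The summed level of that list ran from 162 to 233 CPM. Of 6 blood names 2 had counts, LYZ among them, with a summed 39.2 to 64.0 CPM and with PTPRC, HBB, HBA1 and CD3E at 0. Of 4 liver names FGB and CYP3A4 had counts, with a summed 6.59 to 18.4 CPM and with ALB and APOA1 at 0.

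Together the 10 glycolytic names received 294, 201 and 225 counts in replicates 1, 2 and 3, a summed level of 672, 463 and 742 CPM. They made up 0.0713%, 0.0416% and 0.0778% of gene-assigned counts, with exact Clopper-Pearson 95% intervals of 0.0634% to 0.0800%, 0.0361% to 0.0478% and 0.0680% to 0.0886%. Replicate 2 was the lowest and its interval did not reach those of the other libraries. A count in at least 1 library was found for 9 of the 10, where 54.7% of all names had one, and 6 of the 10 had a count in every library, against 29.2% of all names. The median of the 10 mean levels was 35.1 CPM, against 1.10 CPM over all names. HK2, PFKM, ALDOA and LDHB, 4 of the 10, had 10 or more counts in each library, against 9.68% of all names. PFKL was the member with no count.

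HK2 carried most of these counts. It received 162, 130 and 138 counts, which is 370, 300 and 455 CPM in replicates 1, 2 and 3, with a mean of 375 ± 77.7 CPM (SD, n = 3), the 400th highest of the 26485 names. Its share of the counts of the 10 members was 55.1%, 64.7% and 61.3%, with Clopper-Pearson 95% intervals of 49.2% to 60.9%, 57.6% to 71.3% and 54.6% to 67.7%. These intervals overlapped across the libraries, although the level in CPM was lowest in replicate 2 and highest in replicate 3. HK1, the other hexokinase of the pair, received 2, 0 and 0 counts. In replicate 1 HK2 exceeded HK1 81.0-fold in counts (95% interval 22.1 to 675). Per kilobase of exon the ratio was 84.1-fold in that library (22.9 to 700.3), since the merged exons of the genes are of like length, 6064 bases for HK2 and 6296 bases for HK1. HK1 had no count in replicates 2 and 3. Per kilobase, the observed HK2 counts there were 45.0-fold and 47.8-fold above the floor of 3 HK1 counts. These ratios leave out the counting error of HK2. The Clopper-Pearson 95% lower limits of the HK2 share of the pair were 97.2% and 97.4%. HK2 thus led HK1 in all 3 libraries by margins far outside counting error.

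**Figure D1:**
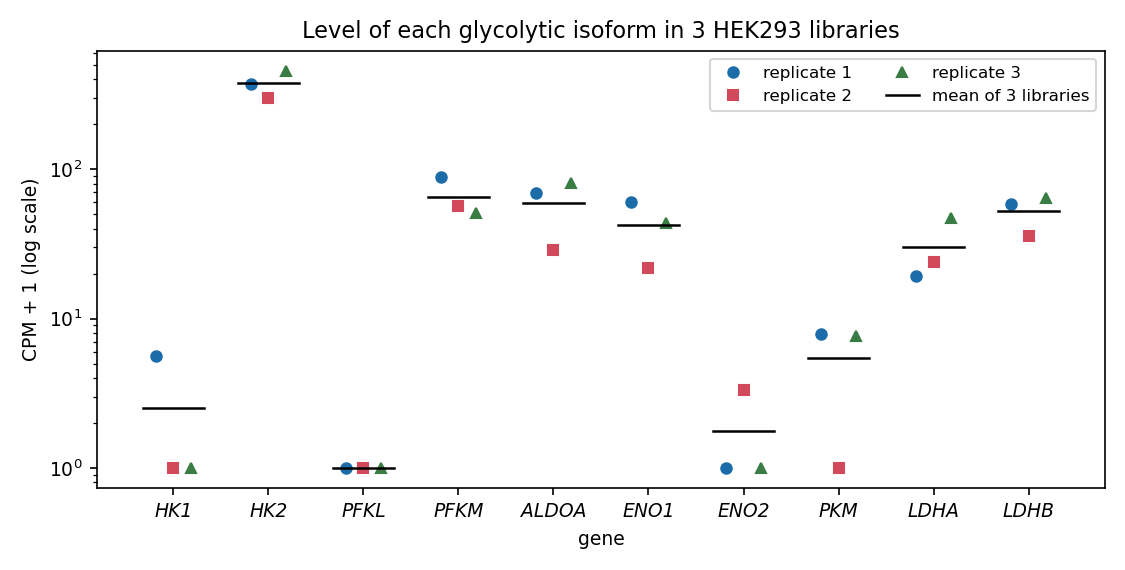
Level of each glycolytic isoform in each of the 3 HEK293 libraries, as CPM + 1 on a log axis by gene; symbols are replicates and the black line is their mean. HK2 lies between 300 and 455 CPM, above every other member in each library, and PFKL lies at 0 in all 3.

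Phosphofructokinase counts fell to the muscle-type gene. PFKM received 38, 24 and 15 counts, or 86.9, 55.3 and 49.4 CPM, with a mean of 63.9 ± 20.1 CPM (SD, n = 3). PFKL received none in any library. Per kilobase, the observed PFKM counts were 15.4-fold, 9.76-fold and 6.10-fold above the floor of 3 PFKL counts in replicates 1, 2 and 3. The counting error of PFKM is left out of these ratios. The Clopper-Pearson 95% lower limits of the PFKM share of the pair were 90.7%, 85.8% and 78.2% in the same order. Both the ratio and the limit follow the PFKM count and were lowest in replicate 3, where that count was lowest. PFKP, the platelet-type gene that completes this family, received 10, 2 and 2 counts. PFKM was above PFKP in all 3 libraries, in counts and per kilobase of exon.

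ALDOA, the aldolase of muscle and most proliferating cells, received 30, 12 and 24 counts, or 68.6, 27.7 and 79.1 CPM, with a mean of 58.4 ± 27.2 CPM (SD, n = 3). Replicate 2 lay below both other libraries. ALDOC, the brain-type aldolase, received 0, 3 and 2 counts. ALDOA was above ALDOC in all 3 libraries, in counts and per kilobase of exon.

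Enolase counts fell to the widespread isoform. ENO1 received 26, 9 and 13 counts, or 59.4, 20.7 and 42.8 CPM, with a mean of 41.0 ± 19.4 CPM (SD, n = 3), lowest in replicate 2. ENO2, the neuronal enolase, received 0, 1 and 0 counts, and ENO3, the muscle enolase, received none. In replicates 1 and 3 the observed ENO1 counts were 7.03-fold and 3.52-fold above the 3-count floor of ENO2 per kilobase. These ratios leave out the counting error of ENO1. The Clopper-Pearson 95% lower limits of the ENO1 share of the pair were 86.8% and 75.3%. In replicate 2 the ratio per kilobase was 7.30 with a 95% interval of 1.01 to 320. The size of the ratio in that library, and its lower limit near equality, rested on 1 count of ENO2 and 9 of ENO1.

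PKM, the pyruvate kinase gene outside liver and red blood cells, received 3, 0 and 2 counts, at or below the 3-count floor in every library. Its transcripts M1 and M2 cannot be told apart in counts per gene. PKLR, the liver and red cell pyruvate kinase, received none in any library.

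Lactate dehydrogenase was the one pair in which both genes had counts in every library. LDHB received 25, 15 and 19 counts, or 57.1, 34.6 and 62.6 CPM, with a mean of 51.4 ± 14.9 CPM (SD, n = 3). LDHA received 8, 10 and 14 counts, or 18.3, 23.1 and 46.1 CPM, with a mean of 29.2 ± 14.9 CPM (SD, n = 3). LDHB was higher in each library, but the ranges of the genes over the libraries overlapped. LDHB took 75.8%, 60.0% and 57.6% of the counts of the pair, with Clopper-Pearson 95% intervals of 57.7% to 88.9%, 38.7% to 78.9% and 39.2% to 74.5%, so equal counts lay inside the interval in replicates 2 and 3. Per kilobase of merged exon, 2983 bases for LDHB and 6210 bases for LDHA, the ratio of LDHB to LDHA was 6.51 (2.84 to 16.7), 3.12 (1.31 to 7.77) and 2.83 (1.34 to 6.09). On the log2 scale this was 1.92 ± 0.63 (SD, n = 3, with 0.5 count added), and 3 libraries cannot give an exact two-sided sign-flip permutation p below 0.25. With the longest annotated transcript as the length, 1538 bases for LDHB and 2416 bases for LDHA, the ratios were 4.91 (2.15 to 12.6), 2.36 (0.990 to 5.87) and 2.13 (1.01 to 4.60). The size of the LDHB excess therefore depended on which exons were counted as the gene, and its direction was the same on each scale. LDHC, the testis lactate dehydrogenase, had no count.

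**Figure D2:**
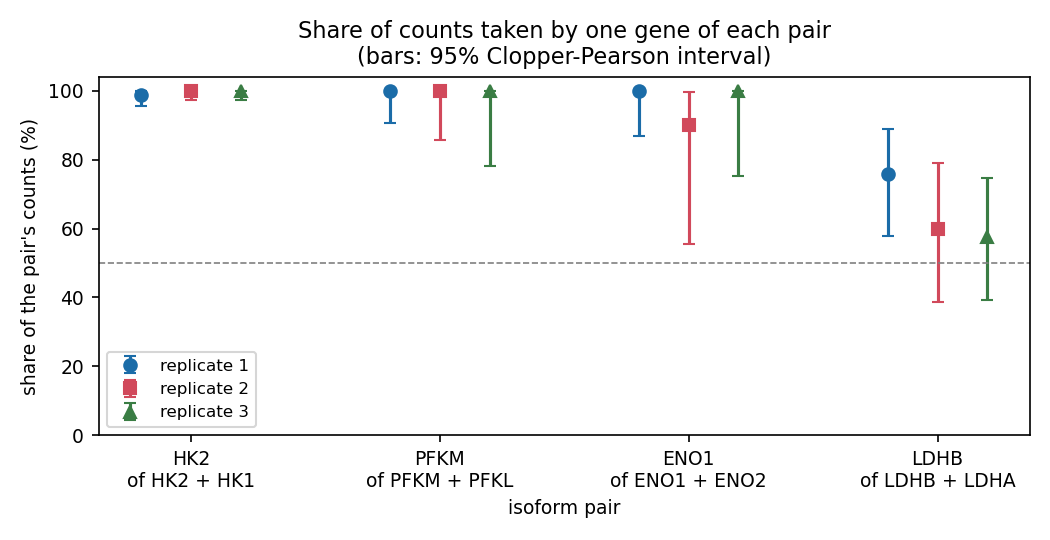
Share of the counts of each isoform pair taken by the first-named gene, in percent, for each replicate; bars are 95% Clopper-Pearson intervals and the dashed line marks equal counts. HK2, PFKM and ENO1 took at least 90.0% of their pair in every library, whereas LDHB took 57.6% to 75.8%, with intervals that cross the dashed line in replicates 2 and 3.

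Compared per kilobase of merged exon, the order of mean levels was HK2 at 61.8 ± 12.8, LDHB at 17.2 ± 4.98, ALDOA at 14.9 ± 6.94, PFKM at 8.73 ± 2.75, ENO1 at 7.77 ± 3.68 and LDHA at 4.70 ± 2.40 CPM per kilobase (SD, n = 3 each). PKM, HK1 and ENO2 followed at 0.523 ± 0.453, 0.242 ± 0.419 and 0.179 ± 0.311 CPM per kilobase (SD, n = 3 each), and PFKL had none. HK2 did not overlap its neighbour LDHB, with a lowest library of 49.4 against a highest of 21.0 CPM per kilobase. LDHA did not overlap PKM either. Each gene from LDHB to ENO1 in the order overlapped its next neighbour in range, as did PKM and HK1, and HK1 and ENO2. Further apart in the order, LDHB at 11.6 to 21.0 CPM per kilobase overlapped neither ENO1 at 3.93 to 11.3 nor LDHA at 2.94 to 7.43. Gene length mattered here because several members have merged exons much longer than any single transcript, by 2.84 times for PKM and 2.57 times for LDHA, against 1.05 times for HK2.

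Replicates were compared with counting noise over all 3635 names with at least 30 counts summed over the libraries, 13.7% of all names, using edgeR's Poisson fit with Benjamini-Hochberg adjustment. Of the members, 6 of 10 reached that count: HK2, PFKM, ALDOA, ENO1, LDHA and LDHB. HK2 varied beyond counting noise with an edgeR adjusted p of 0.00906, ALDOA with 0.0101 and ENO1 with 0.0328. PFKM had an edgeR adjusted p of 0.148, LDHA of 0.135 and LDHB of 0.234. The 3 calls among 6 members stand beside 47.6% of all tested names called, so their share was near the background. Replicate 2 was the lowest library for 4 of the 6, HK2, ALDOA, ENO1 and LDHB, where 34.3% of tested names had their lowest level in it. LDHA was lowest in replicate 1 and PFKM in replicate 3, but neither varied beyond counting noise. None of the 3 calls was made against a negative binomial null at the common dispersion (edgeR adjusted p of 1 for HK2, 0.890 for ALDOA and 0.908 for ENO1) or without replicate 2, where the edgeR adjusted p was 0.227 for HK2, 0.773 for ALDOA and 0.554 for ENO1. The HK2 call was also lost without replicate 3 (edgeR adjusted p = 0.332). The ENO1 call was lost without replicate 1 (edgeR adjusted p = 0.193), with DESeq2 size factors (0.0525) and with no count filter (0.0648). Over all tested names, 0.055% were called under the negative binomial null, whose dispersion was estimated from these same libraries. The share was 14% without replicate 2, 38.5% without replicate 3 and 30.3% without replicate 1. It was 48.3% with DESeq2 size factors and 20.1% with no count filter. Calls lost under that null or without replicate 2 are therefore not particular to the members.

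**Figure D3:**
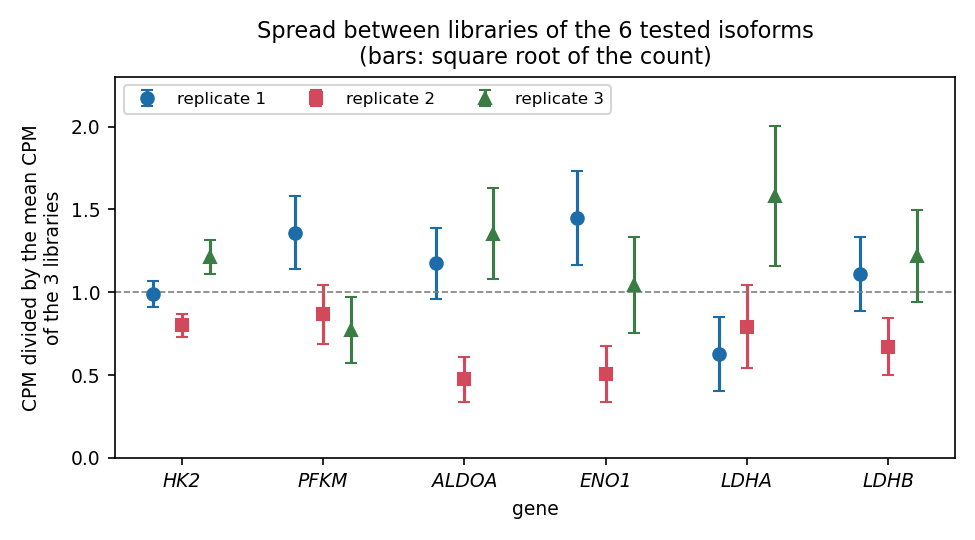
CPM of the 6 tested isoforms in each replicate divided by the mean CPM of that gene over the 3 libraries; bars show the square root of the count on the same scale. Replicate 2 lies below the dashed line at 1 for all 6 genes and is the lowest library for HK2, ALDOA, ENO1 and LDHB.

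The annotation around the members was read because HTSeq's strand setting was not stated in the labels, and a stranded count can land on a gene opposite the transcribed one. In GENCODE release 29, 5 of the 10 members shared exon bases with a gene on the other strand, against 34.3% of protein-coding names. PFKM (chromosome 12, 48105139 to 48146404, plus strand) shared 628 of 7318 exon bases with SENP1, a SUMO protease gene, which itself received 3, 10 and 3 counts. ENO1 (chromosome 1, 8861000 to 8879250, minus strand) shared 126 of 5276 bases with ENO1-AS1, its antisense RNA, which received 10, 5 and 9 counts, or 21.3 ± 9.16 CPM (SD, n = 3). ALDOA (chromosome 16, 30064164 to 30070457, plus strand) shared 520 of 3916 bases with an unnamed antisense transcript that is no row of the tables. It also shared 1657 bases with a read-through gene on its own strand, as LDHB (chromosome 12, 21635342 to 21757857, minus strand) did with 997 bases, and neither read-through gene is a row of the tables.

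HK2 (chromosome 2, 74833981 to 74893359, plus strand) had the most counts of the members and shared only 7 bases, 0.115% of its exon length, with an opposite-strand gene. HK1 (chromosome 10, 69269984 to 69401884, plus strand) shared 49 bases with a ribosomal protein pseudogene. LDHA (chromosome 11, 18394388 to 18408425, plus strand), ENO2 (chromosome 12, 6913745 to 6923698, plus strand), PFKL (chromosome 21, 44300051 to 44327376, plus strand), PKM (chromosome 15, 72199029 to 72231822, minus strand) and LDHB shared none. The median level was 8.73 CPM per kilobase over the 5 members with such overlap and 0.523 over the other 5. Over protein-coding names it was 1.24 CPM per kilobase for the 6538 with overlap and 0.166 for the 9127 with no gene opposite. It was 0.342 for the 3424 with a gene opposite but no shared exon base, the class of LDHB. The member split counts any shared base, so HK2 with 7 bases and HK1 with 49 stand among those with overlap. In several pairs of the wider lists, the name opposite the metabolic gene took far more counts. MAP3K15, a kinase gene, received 198, 200 and 141 counts opposite PDHA1, a pyruvate dehydrogenase subunit, with 9, 25 and 28. ADPGK-AS1 received 255, 205 and 157 counts opposite ADPGK, the ADP-dependent glucokinase, with 5, 13 and 3. In others the order was the reverse, as for PDHX with 192, 149 and 133 counts opposite APIP with 18, 9 and 4. The libraries preserve strand, so counting with the opposite setting would assign reads to the opposite gene. Whether that was done was not tested, and the values describe counts under gene names.

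Copies elsewhere in the genome also bear on the levels. The same annotation lists 21 pseudogenes named after members, 6 for LDHA, 5 for PKM, 4 for ENO1, 3 for LDHB, 2 for ALDOA and 1 for HK2, and none of the 21 is a row of the tables. HK1, PFKL, PFKM and ENO2 have none under such names. Reads that align to more than 1 place formed up to 7.51% of all records in a library and were counted for no gene. Whether any of these came from the members was not tested.

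Of 11 further glycolytic names 9 had a count, with a median of 11.4 CPM, and HK3 and HKDC1 had none. PGAM1, a phosphoglycerate mutase, led with 7, 25 and 16 counts, or 42.1 ± 22.8 CPM, followed by GPI, the isomerase after hexokinase, with 26, 9 and 10 counts, or 37.7 ± 19.8 CPM (SD, n = 3 each). Both, the 2 names of the list with enough counts to test, varied beyond counting noise, with edgeR adjusted p of 0.00709 and 0.0292, as did 47.6% of all tested names. Replicate 2 was the highest library for PGAM1 and the lowest for GPI. GAPDH, which oxidises glyceraldehyde 3-phosphate and is usually among the most abundant mRNAs of a cell, received 16, 3 and 4 counts, or 18.9 ± 15.6 CPM (SD, n = 3). PGK1 received 2, 0 and 0.

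Isoforms known from liver, muscle or testis showed no counts for most names, with 5 of 8 at 0, among them ENO3, LDHC and PGK2. GAPDHS, the sperm form of GAPDH, nevertheless received 74, 47 and 44 counts, or 141 ± 30.6 CPM, and PGAM2, the muscle mutase, received 31, 39 and 31 counts, or 87.6 ± 15.8 CPM (SD, n = 3 each). Per kilobase these means were 92.7 and 102 CPM, above the 61.8 CPM of HK2. GAPDHS shared 924 of 1519 exon bases with TMEM147-AS1 on the other strand, which received 279, 226 and 233 counts, and all 857 exon bases of PGAM2 lay opposite DBNL, an actin-binding protein gene, which received 0, 1 and 0. The counts of both are therefore uncertain as measures of either partner.

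Among genes that take pyruvate into mitochondrial metabolism, PDHX, a structural subunit of the pyruvate dehydrogenase complex, had 192, 149 and 133 counts, or 407 ± 54.9 CPM, and MPC2, a subunit of the mitochondrial pyruvate carrier, had 80.1 ± 12.3 CPM (SD, n = 3 each). PDHX shares 259 exon bases with APIP and MPC2 shares 575 with DCAF6, both on the other strand. In this list of 13, 11 had a count, and PDK4 and PDP1 had none. Of its 5 tested names PDHA1, PDHB and PDP2 varied beyond counting noise, beside 47.6% of all tested names. All 9 glucose and lactate transporter names had a count: SLC16A1, a lactate carrier, led with 52.0 ± 26.8 CPM, and SLC2A1, the widespread glucose carrier, had 47.6 ± 19.7 CPM (SD, n = 3 each), and of 3 tested SLC16A1 varied (edgeR adjusted p = 0.0250), beside 47.6% of all tested names. TKT, the transketolase of the pentose phosphate pathway, had 40, 36 and 41 counts, or 103 ± 28.0 CPM, with no gene opposite, and RPE, the epimerase, had 10, 13 and 7 counts, or 25.3 ± 4.04 CPM (SD, n = 3 each). RPE shares 837 exon bases with KANSL1L on the other strand, which received 512, 721 and 397 counts. TKTL1 was the only one of those 8 names with no count, and neither of the 2 tested passed the test. Among 12 regulators of fructose 2,6-bisphosphate and genes of gluconeogenesis, TIGAR, a fructose 2,6-bisphosphatase, led with 22.0 ± 14.6 CPM and PCK2, the mitochondrial carboxykinase, followed with 8.34 ± 7.09 CPM (SD, n = 3 each). FBP1, PCK1, PFKFB1 and PFKFB4 had no count, and no name of that list had enough counts to test.

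**Figure D4:**
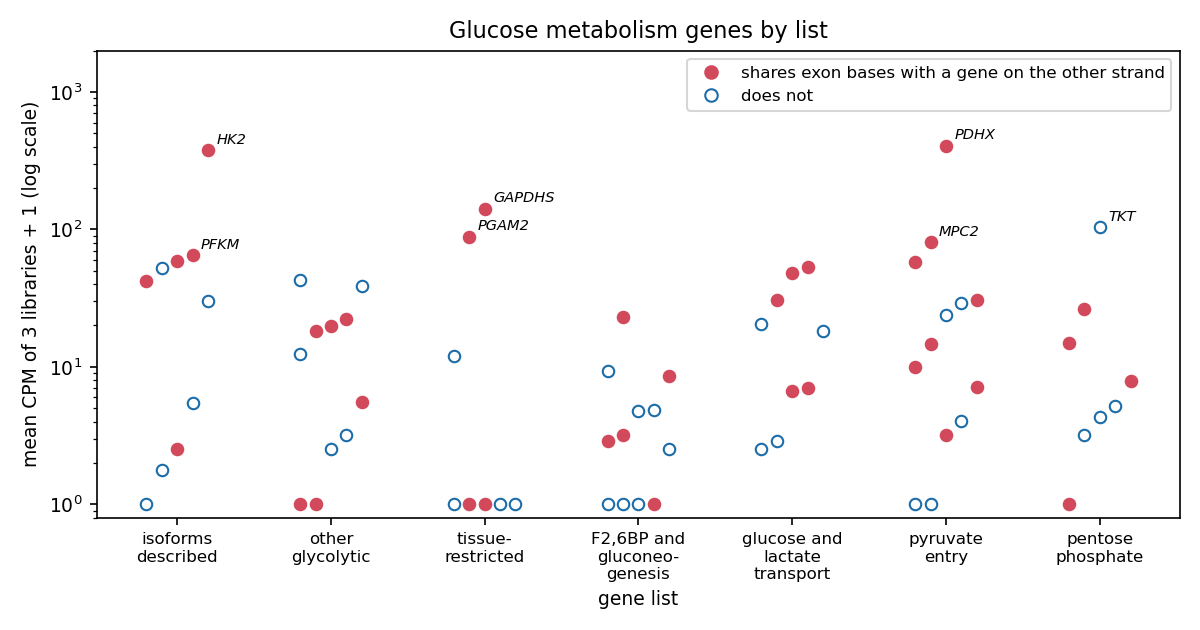
Mean CPM + 1 of 3 libraries on a log axis for each of 71 glucose metabolism genes by list; filled points share exon bases with a gene on the other strand in GENCODE release 29 and open points do not. HK2 at 375 CPM and PDHX at 407 CPM stand highest, and of the 7 genes named beside their points only TKT is open.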

How the data were processed

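Gene-level counts were read from 1 table per library for 3 HEK293 libraries, which formed 1 group with replicate numbers from the labels. The deposited values were raw whole-number counts per gene symbol, and the submitters' processing notes name Trimmomatic, HTSeq 0.11.2 and TopHat2, with 2.2.5 as the version of the last, and the hg38 build. Annotation, strand setting and read layout were not stated there. The 5 summary lines of the read counter (90.6% to 91.5% of records in no feature, up to 7.51% not unique, 0.0183% to 0.0187% ambiguous) entered neither library sizes nor tests. Gene-assigned totals were 289241 to 483114.

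CPM used TMM effective library sizes from edgeR 4.0.16 in R 4.3.3. The 3 libraries were compared with counting noise by edgeR's generalised linear model with dispersion 0 and an intercept: deviances were referred to a chi-square distribution, Benjamini-Hochberg adjustment ran over all names with at least 30 counts summed, and a name was called at an adjusted p under 0.05. No libraries were alike within sampling noise: chi-square per degree of freedom was 3.46 to 13.8. Poisson counts were then simulated with a change in replicate 2. Of these, 28% of 50 genes changed 1.5-fold, 60% of 50 changed 2-fold and 100% of 50 changed 4-fold were called. So were 41.9% of 43 lowered to 0.5-fold and 0.348% of 3450 unchanged genes. The simulated counts held counting noise alone, unlike these libraries, so the rates do not carry over to the real data.

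Gene models came from GENCODE release 29 on GRCh38: 23900 of 26485 names matched by name and 681 by an older symbol. Lengths were merged exons of all transcripts, and any shared exonic base counted as overlap. Intervals are Clopper-Pearson at 95% (scipy 1.17.1, Python 3.11.15). Alternatives were DESeq2 1.42.0 size factors, total counts, other count filters, a negative binomial null, other lengths and prior counts, and leaving out each replicate. Totals without TSIX were added after seeing the data.

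The members, gene lists and tests were chosen with earlier results of these data known. The names given are the 10 members, the 2 highest of each further list with up to 4 members without a count in alphabetical order, genes that overlap a member's exons, and names built on a member's symbol. Some names this rule gives are not reported here. Other isoforms of a member's enzyme step, GAPDH, PGK1, called members of a list, marker genes and overlap partners of named genes were named after their values were seen.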

Additional observations from a re-analysis of the deposited data

How the results depend on the processing

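Of 54 recomputed member levels, 53 moved by less than the spread between replicates. The other was HK2, at 477 CPM per total without TSIX against 375 CPM. That total raised the other members too, as for PFKM from 63.9 to 81.4 CPM and LDHB from 51.4 to 65.5 CPM. HK2 alone passed its spread because its SD was the smallest relative to its mean, at 20.7%. Levels recomputed without 1 replicate could not have moved by more than that spread, because such a mean always stays within the SD of the 3 libraries. All 28 recomputed isoform ratios kept their direction. Leaving out 1 replicate could not reverse a ratio, because each ratio had the same direction in all 3 libraries. The log2 ratio of LDHB over LDHA was 0.86 in counts with no length correction, against 1.92 per kilobase. The log2 ratios per kilobase of the other pairs depend on the count added to a gene at 0. With 0.1 count they were 9.07 for HK2 over HK1, 8.19 for PFKM over PFKL and 5.74 for ENO1 over ENO2. With 0.5 count they were 7.44, 5.90 and 4.08 in that order, and with 1 count PFKM over PFKL was 4.93. Names called as varying numbered 1731 of 3635. They numbered 2914 of 14482 with no count filter and 2 of 3635 under a negative binomial null at the common dispersion, where no member was called. Leaving out 1 replicate gave 508 (without replicate 2) to 1398 names (without replicate 3), with 1102 without replicate 1, and 0 to 2 members. LDHA, LDHB and PFKM were uncalled under each alternative run. Depth limits the low members: with 1 count at 2.29 to 3.30 CPM, differences among PKM, HK1, ENO2 and PFKL were not detectable. No paired analysis was possible because the series has a single group.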
